A study of Drosophila melanogaster with 42 samples.

Results

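Cells of Drosophila melanogaster embryos that lacked surface CD2 under a twi driver were compared after selection on GFP with the same CD2- cells not selected on GFP. The 6 libraries used were chosen by their titles, 3 of twi-CD2-/GFP+ cells and 3 of twi-CD2- input cells, of 42 libraries in the series. Each library counted the reads of 491 candidate regulatory regions of 900 to 1101 bp. All 491 regions entered the description, and the regions named below were picked by rules that use their abundance or their change.

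The transgenic males came from a pool of flies, each with a candidate region placed to drive GFP, and were crossed to females that expressed rat CD2 under the driver twi. Other populations served for comparison, twi CD2+ cells of the same kind of cross and CD2- cells from crosses to a mef2 driver, so that every group used here carries a GFP reporter and a CD2 transgene. Per the labels, egg collections lasted 2 to 2.5 h at 25 °C, ageing lasted 9 to 10 h at 18 °C, and dissociated cells were stained for CD2 and sorted. The twi-CD2-/GFP+ libraries came from 63849, 66845 and 66845 cells, against 100000, 200000 and 200000 cells for twi-CD2- input. The comparison populations had 100783 to 111875 cells in twi-CD2+/GFP+, 100000 to 200000 in twi-CD2+ input, 94473 to 138635 in mef2-CD2-/GFP+ and 200000 in mef2-CD2- input. Cell number therefore differed with the sort on GFP, and its part in the results was not tested. Stored extracts were pooled by sample type before nested PCR, and the labels name no separate crosses or cultures for the replicates, so p-values measure the spread between these samples, which may be technical.

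An enhancer is a stretch of DNA that raises transcription of a nearby promoter in particular cells, and a reporter assay reads that activity as GFP. The driver carries the name of twist, the gene of a basic helix-loop-helix transcription factor that specifies mesoderm, so CD2- cells are those without detected CD2 from that driver and would include ectodermal and endodermal derivatives such as epidermis, nervous system and gut. In a pooled assay, a region active in some of the sorted cells should take a larger share of the GFP+ reads than of the input reads. The share does not tell how many cells switched the region on from how many flies in the pool carried it, which is why each region was read against its own input. The libraries are PCR products of transgene DNA and hold no transcript levels, so no marker gene can check the cell label.

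The GFP+ libraries held 21183668, 20966172 and 18896285 reads, against 21433841, 20611017 and 21534170 in input. Abundance is given as CPM, the reads of a region per 1000000 reads of its library. A floor of 3 reads, taken as the limit that a count of 0 allows, corresponds to 0.139 to 0.159 CPM and covers counting error only, since PCR reads without molecular identifiers are not independent molecules. Of the 491 regions, 257 had a read in any of the 6 libraries and 234 had none. The 206 regions with at least 100 reads in 1 or more inputs included 160 that reached this in every input. In GFP+ cells 187 regions reached 100 reads in 1 or more libraries, and 85 in all 3.

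Selection on GFP was accompanied by a narrower set of regions. The 10 most abundant regions took 67.0%, 61.2% and 64.7% of the GFP+ reads, against 32.5%, 30.5% and 31.3% of the input reads. The means were 64.3% ± 2.90 in GFP+ cells and 31.5% ± 0.995 in input (SD, n = 3 each), a difference of 32.9 percentage points. All GFP+ libraries lay above all inputs, and the exact two-sided permutation test gave p = 0.1, the smallest that 3 against 3 allows. Regions with at least 100 reads numbered 150, 137 and 125 in GFP+ libraries and 182, 185 and 188 in input, again without overlap (exact permutation p = 0.1). The effective number of regions, the exponential of the Shannon entropy of the shares, was 25.7 ± 2.12 in GFP+ cells and 83.6 ± 4.47 in input (SD, n = 3 each).

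GFP+ replicate 3 stood apart from the other GFP+ libraries in regions that were plentiful in input. Over the 83 regions with at least 1000 CPM in every input, the median level was 32.4%, 31.8% and 0.638% of the input mean in GFP+ replicates 1, 2 and 3. Set against the mean of the other inputs, the 3 inputs had medians of 98.3%, 104% and 96.0%. Of the 83 regions, 2, 17 and 45 were under 1% of the input mean in GFP+ replicates 1, 2 and 3, while no input had such a region. No region was under 1% in all 3 GFP+ libraries, an overlap that the 2 such regions of replicate 1 limited. Under 1% in replicate 3 alone were 33 regions, in replicate 2 alone 5, in replicate 1 alone 0 and in none 32. The remaining regions were under 1% in 2 of the GFP+ libraries. The number of these regions above their input mean was 14 in each GFP+ library. The calls of the main comparison are therefore also given without replicate 3. Spreads between libraries and counts of regions by CPM include it.

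**Figure D1:**
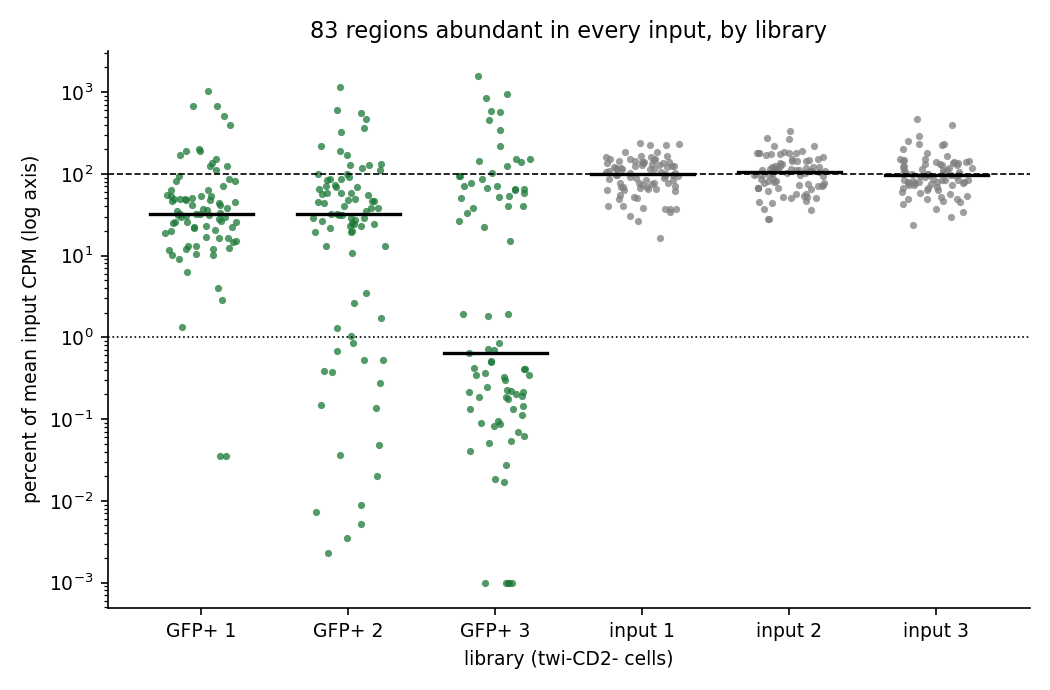
Level of the 83 regions with at least 1000 CPM in every input, as a percent of the mean input CPM (log axis), in each library of twi-CD2- cells. Each point is a region, GFP+ libraries (green) are left of inputs (grey), each input is set against the mean of the other inputs, black bars are medians, the dashed and dotted lines mark equality and 1%, and points on the lowest level of GFP+ replicate 3 are regions with no reads. Most regions of GFP+ replicate 3 lie under the dotted line, with a median of 0.638%, while no input point does.

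Higher in GFP+ cells than in input were 6 regions, namely ChIPCRM2907, ChIPCRM3152, CG7759_33, ChIPCRM2898, CBP5467 and ChIPCRM3147. Together they took 58.8%, 54.1% and 51.3% of the reads in GFP+ cells, against 8.87%, 8.94% and 6.51% in input. Of 204 regions with enough reads to test, 6 were higher (2.94%) and 0 lower (0.0%) at an adjusted p under 0.05 in edgeR's quasi-likelihood test with Benjamini-Hochberg adjustment, and 28 had an unadjusted p under 0.05. DESeq2 called 12 higher (5.88%) and 9 lower (4.41%), the same 6 among the higher ones. It gave no adjusted p for 30 of the 204 regions, which stay in its percentages. Log2 changes are given after TMM scaling, which centres the bulk of the regions. Because a few regions took over much of each GFP+ library, they exceed the log2 of the CPM ratio, and scaling to total reads moved the median of all regions by -1.30 to give 5 higher and 1 lower call. The region lost on that scale was CBP5467, and the region gained was CBP1410.

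ChIPCRM3152, on 3R from 21835656 to 21836646 (dm3), was the most abundant region in every GFP+ library. It had 291565, 260674 and 251045 CPM in GFP+ cells, against 50311, 41782 and 38233 CPM in input. It alone took 25.1% to 29.2% of the reads of a GFP+ library. It was also the most abundant region on average in input, and the groups did not overlap. The CPM ratio was 6.16 and the log2 change 3.92 ± 0.14 (SE; edgeR quasi-likelihood adjusted p = 1.46e-07).

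ChIPCRM2907, on 3R from 17989695 to 17990673, followed with 132520, 149039 and 122912 CPM in GFP+ cells, against 13933, 13656 and 10894 CPM in input. The replicates of each group were close together and every GFP+ library was far above every input. The CPM ratio was 10.5, the log2 change was 4.70 ± 0.17 (SE) and the edgeR quasi-likelihood adjusted p was 1.46e-07. ChIPCRM2898 lies 29044 bp to its left, on 3R from 17959709 to 17960651. It had 37664, 44737 and 32191 CPM in GFP+ cells, against 7556, 13654 and 7070 CPM in input. Input replicate 2 was the highest of the inputs and still below all GFP+ libraries. The CPM ratio was 4.05 and the log2 change 3.34 ± 0.40 (SE; edgeR quasi-likelihood adjusted p = 0.00114).

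CG7759_33 carries the identifier of Smyd4-3, a gene of the SET and MYND domain family of lysine methyltransferase-like proteins, and lies on 2R from 7287136 to 7288168. It had 57906, 48196 and 73338 CPM in GFP+ cells, against 7136, 13512 and 5051 CPM in input. Relative to their mean the inputs varied more than the GFP+ libraries, and the groups did not overlap. The CPM ratio was 6.98 and the log2 change 4.14 ± 0.41 (SE; edgeR quasi-likelihood adjusted p = 0.000363). It was the only region named for a gene among the 6. The deposited tables give no gene for the others, and the place of the regions in genes was not analysed here.

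CBP5467, on 2R from 16487993 to 16489070, had 34984, 24891 and 31198 CPM in GFP+ cells, against 9782, 6841 and 3854 CPM in input. The GFP+ libraries were all above the inputs by a margin of more than the highest input itself. The CPM ratio was 4.45 and the log2 change 3.44 ± 0.52 (SE; edgeR quasi-likelihood adjusted p = 0.00556). This call was lost with scaling to total reads (adjusted p = 0.0663), with the spread taken from all twi groups (0.0740) and without GFP+ replicate 1 (0.0757).

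ChIPCRM3147 differed from the other 5 in that it was almost absent from input. On 3R from 21824689 to 21825693, it had 33365, 13914 and 2722 CPM in GFP+ cells, against 0, 1.89 and 1.58 CPM in input. Those inputs held 73 reads in all, against 1049959 in GFP+ cells. GFP+ replicate 3 was the lowest of its group and yet above 1000 CPM, and the groups did not overlap. The log2 change was 15.14 ± 2.51 (SE; edgeR quasi-likelihood adjusted p = 0.0085), lost without GFP+ replicate 1 (0.0864) or without input replicate 3 (0.0640). It was the only region with at least 1000 CPM in a GFP+ library and under 10 CPM in every input, and this held in all 3 GFP+ libraries.

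**Figure D2:**
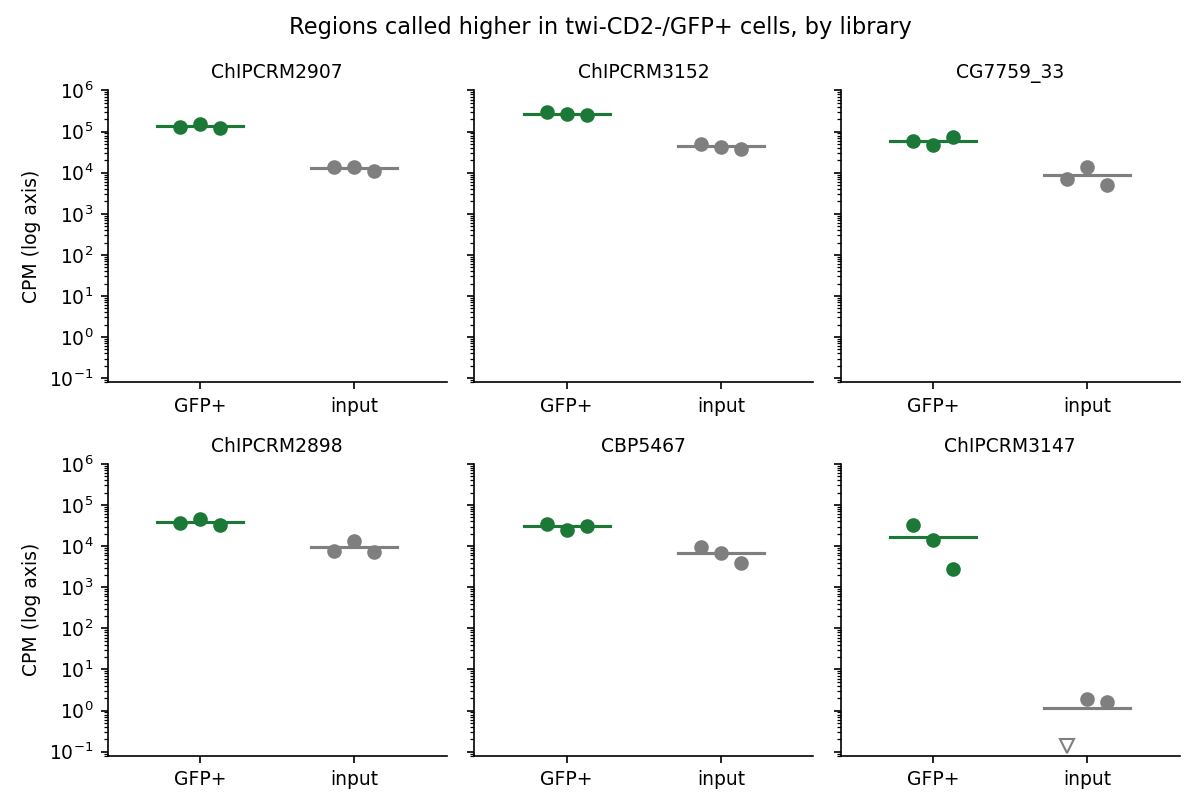
CPM (log axis) of the 6 regions called higher, in each of 3 twi-CD2-/GFP+ libraries (green, left) and 3 twi-CD2- input libraries (grey, right). Points are libraries, bars are means and the open triangle is a library with no reads, drawn at the floor of 3 reads; in each panel every GFP+ library lies above every input, and ChIPCRM3147 alone has inputs near the floor, at 0 to 1.89 CPM.

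The calls of ChIPCRM2907, ChIPCRM3152, CG7759_33 and ChIPCRM2898 held in all 13 alternative fits, including each left-out library. Without GFP+ replicate 3 the same 6 regions were called higher and 0 lower. Apart from ChIPCRM3147, the called regions had a coefficient of variation of 7.91% to 21.2% among GFP+ libraries. The median over the 83 regions abundant in input was 90.4% among GFP+ libraries and 32.9% among inputs. These spreads describe regions picked by a test that favours a small spread.

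Each of the 6 regions overlapped no other region. Their GC content of 43.3% to 54.7% lay within the 31.4% to 60.1% of the 204 tested regions, with ChIPCRM3147 at the top. Across the 204 regions the log2 change had a Pearson correlation of 0.08 with GC content, -0.08 with length and -0.02 with log2 input CPM, over regions that share the same 6 libraries. Their lengths ran from 943 to 1078 bp, against a median of 1005 bp.

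By position, 4 of the 6 lie on 3R, where 66 regions were tested (6.06%), and 2 on 2R among 24 tested (8.33%), against 2.94% of all tested regions. Regions on 3R took 66.3% of GFP+ reads and 39.5% of input reads. These shares include the 4 called regions, which were picked for a rise in GFP+ cells. None was called among the 47 tested on 2L, 41 on 3L or 26 on X. The 4 regions of 3R form 2 neighbourhoods, since ChIPCRM3147 and ChIPCRM3152 are separated by 9963 bp.

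None of the 3 regions within 5000 bp of a called one passed the test. DHS_FC_15, the nearest, ends 758 bp to the left of CBP5467. It had 12192, 10171 and 293 CPM in GFP+ cells, against 31618, 29760 and 43200 CPM in input, so all GFP+ libraries lay below all inputs on the CPM scale. Its log2 change after TMM scaling was -0.92 ± 1.05 (SE; edgeR quasi-likelihood adjusted p = 0.908). CBP5470 lies 3431 bp to the right of CBP5467 and had 9.21, 0 and 0 CPM in GFP+ cells, against 73.1, 97.7 and 79.6 CPM in input (log2 change -3.49 ± 2.77, SE; edgeR quasi-likelihood adjusted p = 0.769). ChIPCRM3148, which starts 2265 bp to the right of ChIPCRM3147, had 1384, 0.334 and 1060 CPM in GFP+ cells, against 1865, 526 and 2800 CPM in input. The groups overlapped, and each GFP+ library lay below the input of its own replicate number.

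Beyond the 6 called regions, only CBP2861 had every GFP+ library above every input in CPM, so 7 of 204 regions (3.43%) did. CBP2861, on 3L from 317954 to 319048, had 12682, 11210 and 8598 CPM in GFP+ cells, against 5104, 2428 and 976 CPM in input. Its log2 change of 3.20 ± 1.00 (SE) did not pass in edgeR's quasi-likelihood test (adjusted p = 0.201) and passed in DESeq2 (adjusted p = 0.00422). On the other side, 78 of 204 regions (38.2%) had every GFP+ library below every input in CPM, a scale on which the share taken by the abundant regions lowers all others.

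Some of the most abundant GFP+ regions were as abundant in input. ChIPCRM752, on 2R from 10315985 to 10316956, had 23243, 17035 and 23607 CPM in GFP+ cells, against 26393, 25989 and 22096 CPM in input. It was the sixth most abundant region in GFP+ cells, and its groups overlapped (log2 change 1.08 ± 0.41, SE; edgeR quasi-likelihood adjusted p = 0.343). ChIPCRM2256 (mean 20309 ± 11312 CPM in GFP+ cells, 14230 ± 2112 CPM in input), ChIPCRM3043 (16989 ± 5024 and 26558 ± 4828 CPM) and ChIPCRM2299 (16418 ± 3227 and 10485 ± 4849 CPM) also overlapped between the groups (SD, n = 3 each). A high level in GFP+ cells therefore did not by itself mark a region called in edgeR's test. Of these regions, ChIPCRM2299 was called higher in DESeq2 (log2 change 3.70, adjusted p = 0.0415).

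**Figure D3:**
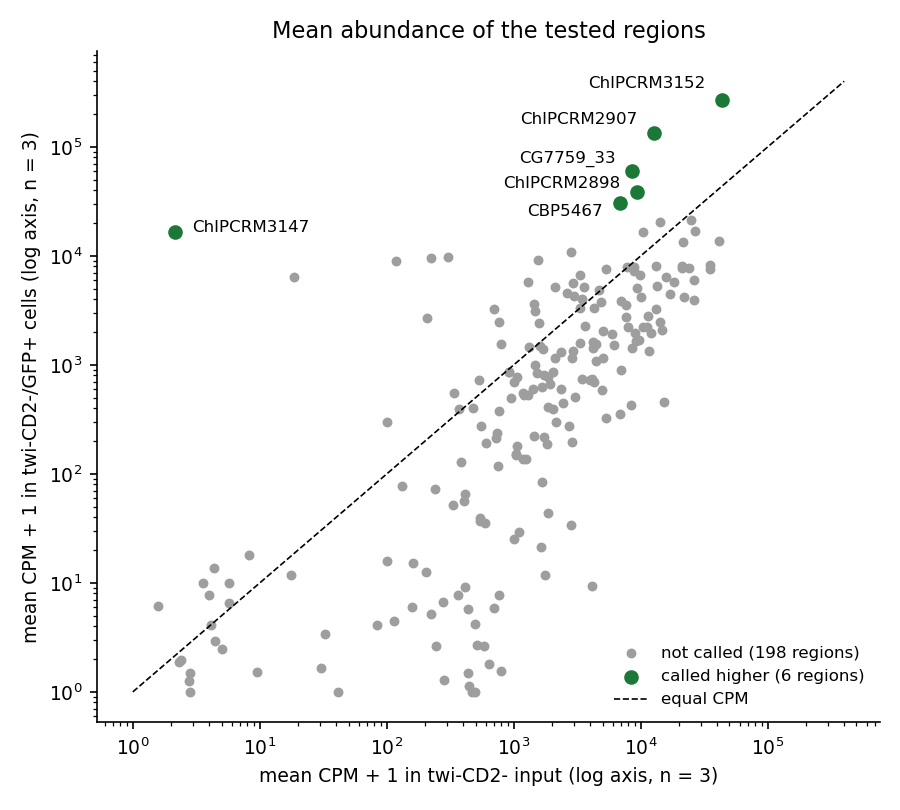
Mean CPM plus 1 of the 204 tested regions in twi-CD2-/GFP+ cells (y, log axis) against twi-CD2- input (x, log axis), n = 3 libraries each. Green points are the 6 regions called higher, grey points the others, and the dashed line marks equal CPM; most grey points lie below the line, and ChIPCRM3147 stands alone with a mean of 16667 CPM in GFP+ cells and 1.16 CPM in input.

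Several of the regions that led the input had lower CPM in every GFP+ library and did not pass the test. Ubx_18 is named for Ultrabithorax, a Hox gene of the trunk segments, and lies on 3R from 12506697 to 12507685. It had 17020, 8055 and 15598 CPM in GFP+ cells, against 40917, 41822 and 41462 CPM in input. Its inputs differed little and all GFP+ libraries lay below them, but relative to the bulk of regions its log2 change was -0.31 ± 0.46 (SE; edgeR quasi-likelihood adjusted p = 0.908). CBP1410, on X from 19591043 to 19592056, had 6945, 8641 and 9267 CPM in GFP+ cells, against 29308, 34786 and 41616 CPM in input. Its log2 change was -0.77 ± 0.52 after TMM scaling (SE; edgeR quasi-likelihood adjusted p = 0.749) and -2.09 ± 0.43 with scaling to total reads (adjusted p = 0.0366). Some other input-rich regions had much lower levels in GFP+ replicate 3 than in replicates 1 and 2. Among these were ChIPCRM5806 (6885, 10664 and 488 CPM in GFP+ cells, mean 26470 CPM in input), ChIPCRM770 (8263, 3451 and 18.1 CPM, mean 26317 CPM) and cib_Up_4 (11728, 11627 and 31.2 CPM, mean 23810 CPM), the last named for ciboulot, an actin-binding protein.

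The regions that came closest to a lower call were scarce in input. ChIPCRM3406, on 3R from 26560648 to 26561725, had no reads in any GFP+ library, against 265, 681 and 446 CPM in input. Its level was at least 9442-fold lower in GFP+ cells, with the floor of 3 reads taken over the group. CG11202_a_1, on X from 8346292 to 8347240, is named for org-1, a T-box gene of muscle founder cells, and overlaps CG11202_a_2, so the division of reads between them is uncertain. It too had no reads in GFP+ cells, against 466, 183 and 838 CPM in input, which is at least 10092-fold lower. Neither passed in edgeR's quasi-likelihood test (adjusted p = 0.0947 for each), while DESeq2 called both lower (adjusted p = 2.02e-08 for ChIPCRM3406 and 2.23e-08 for CG11202_a_1). DHS_FC_17, on 3L, had 0.378, 0 and 0 CPM in GFP+ cells, against 293, 458 and 574 CPM in input (edgeR quasi-likelihood adjusted p = 0.201, DESeq2 adjusted p = 3.61e-06). In all, 8 regions had at least 100 reads in every input and in no GFP+ library.

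Of the 129 regions with a mean of at least 1000 CPM in input, 14 had a mean under 10% of that in GFP+ cells. The most abundant was betaTub60D_17, named for a beta-tubulin isotype gene, with 1368, 1.10 and 8.26 CPM in GFP+ cells, against 19046, 11368 and 15072 CPM in input. All GFP+ libraries lay below all inputs, yet replicate 1 was more than 100 times the others of its group, and the log2 change of -3.80 ± 2.28 (SE) did not pass (edgeR quasi-likelihood adjusted p = 0.727). DHS_FC_40 had the same shape, with 1274, 0.429 and 5.24 CPM in GFP+ cells and 8617, 8404 and 8094 CPM in input. ChIPCRM5399 had 862, 180 and 14.8 CPM in GFP+ cells, against 8466, 3859 and 8437 CPM in input. Here too the GFP+ libraries disagreed among themselves by more than 10-fold.

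Replicates agreed less well after selection on GFP than before it. Over the 204 tested regions, the Pearson correlation of log2 CPM between replicates was 0.515, 0.456 and 0.463 among GFP+ libraries and 0.742, 0.695 and 0.724 among inputs. The median SD of log2 CPM within a group was 3.43 in GFP+ cells and 0.90 in input. Levels differed by more than 100-fold between replicates for 97 regions in GFP+ cells and for 30 in input.

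By the class in their identifiers, the called regions were 4 of 122 tested regions named ChIPCRM (3.28%), 1 of 16 named CBP (6.25%), 0 of 20 named DHS_FC, 0 of 5 named DHS_FCM and 1 of 41 named for a gene (2.44%), against 2.94% of all tested. Median log2 changes after TMM scaling were -0.06 for ChIPCRM, -0.89 for CBP, -0.90 for DHS_FC, -4.48 for DHS_FCM and -0.27 for gene-named regions, against -0.29 for all 204. ChIPCRM regions took 78.2% of the GFP+ reads and 64.4% of the input reads, and gene-named regions 12.8% and 19.3%. These shares include the called regions, which were picked for a rise in GFP+ cells. Together the 6 called regions took a mean of 54.8% of GFP+ reads and 8.11% of input reads.

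Among regions named for genes, those of somatic muscle and founder cells numbered 36, of which 14 were tested and 0 called in either direction, where 2.94% of all tested regions were called higher, with a median log2 change of -0.04. The 20 org-1 regions (7 tested) had a median of -0.23 and the 11 regions of slouch, a homeobox gene of founder cell identity (slou, 5 tested), one of -1.15. The most abundant of this list in GFP+ cells was slou_Up_30, with 4875, 1.81 and 10536 CPM in GFP+ cells, against 3342, 3.11 and 3033 CPM in input. Replicate 2 was near 0 in both groups, and the groups overlapped. For nau_a_4, named for nautilus, the fly relative of MyoD, GFP+ cells had 1513, 4074 and 9482 CPM, against 4722, 11964 and 11222 CPM in input. The groups overlapped, and each GFP+ library lay below the input of its own replicate number.

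Of the cardiac and visceral mesoderm list, 6 regions were assayed and 3 tested, with 0 called (2.94% higher among all tested) and a median of -0.31. Besides Ubx_18 these were abd-A_3, named for the Hox gene abdominal-A (2150, 5.39 and 2.01 CPM in GFP+ cells, against 4371, 4739 and 2868 CPM in input), and mid_30, named for the T-box gene midline (880, 985 and 0 CPM, against 2544, 632 and 1850 CPM). The list of general coactivator and chromatin genes had 18 regions, 7 of them tested, with a median of -0.71. Its 1 call of 7 (14.3%, against 2.94% of all tested) was CG7759_33, and the others carry the identifier of nejire (nej), the fly CBP histone acetyltransferase. The list held only nej and Smyd4-3 and was chosen with earlier results of these data known. Its share therefore says nothing about such genes as a class. No region was named for a gene of the nervous system list or of the trachea, gut, blood and fat body list, and the 1 region of the epidermis and segmentation list had too few reads to test. Of the driver genes, only Mef2 lends its name to a region, and Mef2_29 had no reads in any of the 6 libraries.

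The enrichment was then set against that in twi CD2+ cells, the population that carried the driver's CD2, and in CD2- cells of the mef2 driver. Mef2 is a transcription factor of muscle differentiation. Each had 3 GFP+ and 3 input libraries. Of 211 regions tested for a difference in enrichment between twi CD2- and twi CD2+ cells, 0 passed as higher and 0 as lower (0.0% each) in edgeR's quasi-likelihood test. The unadjusted p was under 0.05 for 21 regions. In DESeq2, 7 passed as higher (3.32%) and 5 as lower (2.37%), with no adjusted p for 37 of the 211 regions. Between twi CD2- and mef2 CD2- cells, 0 of 221 passed in either direction (0.0%) in edgeR's test, with 28 regions at an unadjusted p under 0.05. There 27 passed as higher (12.2%) and 12 as lower (5.43%) in DESeq2, with no adjusted p for 35 of the 221 regions.

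ChIPCRM3152 was above its mean input in every GFP+ library of the 3 populations. Each GFP+ library over the mean of its inputs gave ratios of 6.71, 6.00 and 5.78 in twi CD2- cells, 5.75, 4.71 and 4.22 in twi CD2+ cells and 8.63, 8.29 and 7.01 in mef2 CD2- cells. The tested difference was -0.02 ± 0.28 on the log2 scale for twi CD2- minus twi CD2+ (SE; edgeR quasi-likelihood adjusted p = 0.992), with a sign that changed between settings. For ChIPCRM2907 the ratios were 10.3, 11.6 and 9.58 in twi CD2- cells, 5.58, 6.26 and 4.83 in twi CD2+ cells and 4.68, 4.46 and 5.17 in mef2 CD2- cells. The GFP+ means were close in the twi sorts, 134824 ± 13215 CPM in twi CD2- and 121764 ± 15717 CPM in twi CD2+ cells, while the input means were 12828 ± 1680 and 21925 ± 6232 CPM (SD, n = 3 each). Between those inputs the log2 difference was -0.93 ± 0.28 (SE; edgeR quasi-likelihood unadjusted p = 0.0121, adjusted p = 1.00). The ratios of twi CD2- cells lay above all others, but the differences of 0.56 ± 0.39 from twi CD2+ and 0.84 ± 0.39 from mef2 CD2- did not pass (SE; edgeR quasi-likelihood adjusted p = 0.896 and 0.384). The called regions were picked for a rise over input in twi CD2- cells, which favours higher ratios there. These ratios use CPM, while the tested differences use TMM scaling.

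CG7759_33 had its lowest ratios here, 6.76, 5.63 and 8.56 in twi CD2- cells, 22.5, 19.3 and 14.02 in twi CD2+ cells and 18.6, 16.7 and 17.5 in mef2 CD2- cells. The inputs had similar means, 8566 ± 4408 CPM in twi CD2- and 8561 ± 3019 CPM in twi CD2+ cells (SD, n = 3 each). The log2 difference between twi CD2- and twi CD2+ was -1.74 ± 0.60 (SE; edgeR quasi-likelihood adjusted p = 0.213). It passed without the filter on low counts (0.0414), without twi-CD2- input replicate 3 (0.0478) and without twi-CD2+/GFP+ replicate 3 (0.0227), and it was 0.07 in DESeq2. From mef2 CD2- cells it differed by -1.62 ± 0.48 (SE; edgeR quasi-likelihood adjusted p = 0.163).

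CBP5467 had ratios of 5.13, 3.65 and 4.57 in twi CD2- cells, against 1.31, 1.72 and 1.35 in twi CD2+ cells and 0.846, 0.831 and 0.980 in mef2 CD2- cells. The 3 populations did not overlap in these ratios, while the tested differences were 1.24 ± 1.16 from twi CD2+ and 1.98 ± 0.89 from mef2 CD2- (SE; edgeR quasi-likelihood adjusted p = 0.992 and 0.382). CBP5467 too was picked for its rise in twi CD2- cells, which favours this order. ChIPCRM3147 reached 1631, 4284 and 1.05 CPM in twi CD2+ GFP+ cells and 1720, 4366 and 2.60 CPM in mef2 CD2- GFP+ cells, so that replicate 3 was near 0 in each. In twi CD2- cells replicate 3 was also the lowest, at 2722 CPM. ChIPCRM3147 was almost absent from the other inputs too, with 0.998 ± 0.499 CPM in twi CD2+ and 0.282 ± 0.362 CPM in mef2 CD2- input (SD, n = 3 each). Its tested differences were 2.17 ± 2.60 from twi CD2+ and 0.78 ± 2.86 from mef2 CD2- (SE; edgeR quasi-likelihood adjusted p = 0.992 and 0.9996). CBP2861 had ratios of 4.47, 3.95 and 3.03 in twi CD2- cells, 0.870, 0.0129 and 0.0175 in twi CD2+ cells and 3.00, 2.27 and 2.64 in mef2 CD2- cells. Its difference from twi CD2+ was 3.28 ± 2.46 (SE; edgeR quasi-likelihood adjusted p = 0.911).

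**Figure D4:**
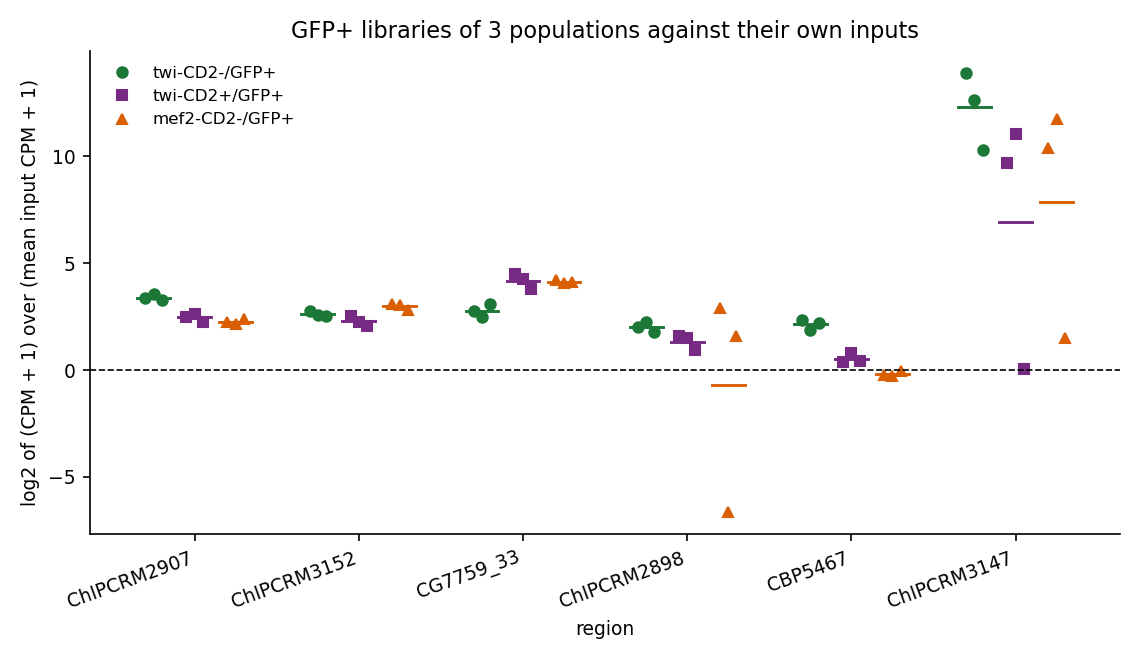
Log2 of CPM plus 1 in each GFP+ library over mean input CPM plus 1 (y) for the 6 regions called higher in twi-CD2- cells (x), in twi-CD2-/GFP+ (green circles), twi-CD2+/GFP+ (purple squares) and mef2-CD2-/GFP+ cells (orange triangles). Bars are means of 3 libraries and the dashed line marks equal levels; CG7759_33 is lowest in twi-CD2- cells, with ratios of 5.63 to 8.56, and CBP5467 highest there, with 3.65 to 5.13.

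The regions with the smallest p in the difference from twi CD2+ cells had higher GFP+ levels there. ChIPCRM2300, on 3R from 10415270 to 10416230, averaged 24.4 ± 2.64 CPM in twi CD2- GFP+ cells and 1003 ± 887 CPM in their input, against 9594 ± 2717 CPM in twi CD2+ GFP+ cells and 33.2 ± 49.5 CPM in their input (SD, n = 3 each). ChIPCRM2754, on 3R from 16375852 to 16376858, averaged 605 ± 75.4 and 2370 ± 1632 CPM in twi CD2- GFP+ and input cells, against 18804 ± 4417 and 2361 ± 1876 CPM in the twi CD2+ ones (SD, n = 3 each). The log2 differences were -13.79 ± 3.03 and -5.24 ± 1.18 (SE; edgeR quasi-likelihood adjusted p = 0.0705 for each), and both passed without the filter on low counts (0.0302 and 0.0466). Neither was among the regions that passed in DESeq2. In the opposite direction, ChIPCRM6322 had 1642, 9732 and 8529 CPM in twi CD2- GFP+ cells and a mean of 0.976 ± 0.640 CPM in twi CD2+ GFP+ cells (SD, n = 3), a log2 difference of 11.27 ± 3.08 (SE; edgeR quasi-likelihood adjusted p = 0.121). It passed without twi-CD2+ input replicate 3 (edgeR adjusted p = 0.0490) and in DESeq2 (adjusted p = 6.01e-06).

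From mef2 CD2- cells, the leading differences that did not pass included cib_Up_4. It averaged 7796 ± 6724 CPM in twi CD2- GFP+ cells and 23810 ± 6902 CPM in their input. In mef2 CD2- cells it averaged 8.52 ± 4.25 CPM in GFP+ cells and 6888 ± 2567 CPM in input (SD, n = 3 each). Its mean GFP+ level was thus below its mean input in both populations. The log2 difference in enrichment was 7.72 ± 2.10 (SE; edgeR quasi-likelihood adjusted p = 0.156), and it passed without twi-CD2-/GFP+ replicate 3 (0.00653). ChIPCRM6149, which overlaps ChIPCRM6148, likewise had 11351, 13063 and 29.5 CPM in twi CD2- GFP+ cells and passed without that library (0.0170). Its mean GFP+ level was also below its mean input in both populations. The input means were 13195 CPM in twi CD2- and 5263 CPM in mef2 CD2- cells. Between the inputs of twi CD2- and twi CD2+ cells, 0 of 204 regions passed in either direction (0.0%) in edgeR's quasi-likelihood test. The unadjusted p was under 0.05 for 3 regions, and 2 passed as higher (0.98%) and 3 as lower (1.47%) in DESeq2, with no adjusted p for 13 regions.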

How the data were processed

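Reads of PCR-amplified transgene inserts were counted per candidate region. The submitters' processing notes name CASAVA 1.8 and build dm3, and no mapper. The deposited total is an expected count, with fractions in a few regions, and was rounded to whole reads. The deposited start and end columns are counts, whose sum, the deposited weight, was an alternative. GC content is deposited as a fraction per the file headers. In the twi CD2+ tables, 3 regions listed on 2 lines under the same name were merged. Gene symbols came from identifiers: 105 of 107 gene-named regions matched 1 symbol in RefSeq (47 genes), used for names only.

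Counts were tested with the quasi-likelihood method of edgeR 4.0.16 (with limma 3.58.1 in R 4.3.3), after TMM scaling and filterByExpr, and adjusted by Benjamini-Hochberg (0.05). This was checked on simulated counts with a variation set below that estimated in the main comparison. The check therefore does not show how the test performs at the spread of these libraries. Differences in enrichment were interaction terms. Each SE is the size of the log2 change divided by the root of its F statistic. Biological variation was estimated at 168% in the main comparison. DESeq2 1.42.0, total-read scaling, other filters, the weight, the replicate block, a wider spread and left-out libraries were alternatives. No libraries were identical or within sampling noise. Replicate numbers of the labels were taken to pair GFP+ and input libraries, since deviations of same-numbered libraries correlated at 0.25, 0.20 and 0.19 over 204 regions. In mef2 CD2- cells (0.07, 0.19 and 0.09) they did not all reach the 0.1 required. Between the twi CD2- and twi CD2+ sorts these correlations were 0.69, 0.47 and 0.49 for inputs and 0.54, 0.18 and 0.37 for GFP+ cells. The main fits did not use the replicate numbers, which entered only in the replicate block.

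Named regions were those called, the 15 most abundant in GFP+ cells, the 10 most abundant in input, up to 8 per direction without overlap in CPM that did not pass, driver and list genes, up to 5 per direction in each difference, up to 10 of at least 1000 CPM in input and under 10% of that in GFP+ cells, and regions within 5000 bp of a called one. Others were named after their values were seen. Members and lists were chosen with earlier results of these data known.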

Additional observations from a re-analysis of the deposited data

How the results depend on the processing

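In the comparison of twi-CD2-/GFP+ cells with input, the count of higher regions was 6 in the main test, 12 in DESeq2 and 4 to 6 with a library left out. The count of lower regions was 0, with 9 in DESeq2, 1 with total-read scaling and 0 in each fit with a library left out. With the replicate block the calls were the same 6 higher and 0 lower regions, and the block changed no other call. For twi CD2- minus twi CD2+ enrichment, DESeq2 gave 7 higher and 5 lower, the fit without a filter gave 3 lower, and left-out libraries gave 0 to 1 higher and 0 to 2 lower, the cause of which was not tested. For twi CD2- minus mef2 CD2- enrichment, DESeq2 gave 27 higher and 12 lower, and left-out libraries 0 to 2 higher and 0 to 1 lower, ChIPCRM3407 being lower without twi-CD2-/GFP+ replicate 1. Between the inputs DESeq2 gave 2 higher and 3 lower. The difference in the share of the most abundant regions was 28.01 points over 20 regions, and that in the number of regions was -37.7 at 10 reads and -70.3 at 1000 reads, against -47.7 at 100 reads.

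Signs turned in differences that did not pass. For ChIPCRM3152, the difference from twi CD2+ was 0.33 with total-read scaling, 0.0231 with the replicate block and -0.497 to 0.0806 with a library left out, and that from mef2 CD2- was 0.49 in DESeq2. For CG7759_33 the difference from twi CD2+ was 0.0665 in DESeq2. For ChIPCRM2898, left-out libraries moved the difference from twi CD2+ between -0.19 and 0.41 and that from mef2 CD2- between -1.83 and 1.04, with 1.62 in DESeq2 and 0.21 with total-read scaling. For ChIPCRM3147 the difference from mef2 CD2- ranged from -0.94 to 2.06. The causes were not tested. Levels differed by more than 100-fold between replicates for 97 of 204 regions in GFP+ cells and 30 in input, and whether depth limits the calls was not tested.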

Other observations

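Several regions were high in some GFP+ libraries only. Of 121 regions with at least 1000 CPM in 1 or more GFP+ libraries, 76 were under a hundredth of their highest GFP+ library in the lowest. Replicate 1 alone reached 1000 CPM, with the others under 100 CPM, for 16 regions, replicate 2 alone for 13 and replicate 3 alone for 5.

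In replicate 3, ChIPCRM2078 had 29345 CPM, against 93.3 and 164 CPM in GFP+ replicates 1 and 2, and input had 11.7, 8.73 and 889 CPM. ChIPCRM5432 had 26.7, 51.5 and 28778 CPM in GFP+ cells, against 2.10, 6.74 and 660 CPM in input. For both regions the high GFP+ library and the high input carry the same replicate number. In mef2 CD2- GFP+ cells ChIPCRM2078 averaged 138345 ± 2224 CPM, against 7284 ± 1417 CPM in their input. ChIPCRM5432 averaged 31548 ± 7721 CPM in those GFP+ cells, against 2579 ± 2325 CPM in input (SD, n = 3 each). In twi CD2+ GFP+ cells the means were 9929 ± 17119 and 5153 ± 8891 CPM (SD, n = 3 each). CG15319_down_3, named for nejire and overlapping CG15319_down_2 and CG15319_down_4, had 1249, 1805 and 24308 CPM in GFP+ cells, against 1949, 1019 and 1675 CPM in input. There only the GFP+ library was raised. The same held for mud_a, named for a spindle orientation gene, which had 0.425, 8.54 and 9772 CPM in GFP+ cells, against 976, 554 and 562 CPM in input. None of these regions passed edgeR's quasi-likelihood test (adjusted p = 0.373, 0.450, 0.343 and 0.769).

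CBP2861 and CBP2862 are close on 3L, from 317954 to 319048 and from 320026 to 321098, and their GFP+ levels ran in opposite orders in the twi sorts. CBP2861 averaged 10830 ± 2068 CPM in twi CD2- GFP+ cells and 596 ± 980 CPM in twi CD2+ GFP+ cells. CBP2862 averaged 35.7 ± 18.9 CPM in twi CD2- GFP+ cells and 13294 ± 7169 CPM in twi CD2+ GFP+ cells (SD, n = 3 each). Input means in twi CD2- and twi CD2+ cells were 2836 ± 2094 and 1987 ± 2555 CPM for CBP2861. For CBP2862 they were 542 ± 464 and 2603 ± 3149 CPM (SD, n = 3 each), so the input means ran in the same orders. The differences in enrichment did not pass in edgeR's quasi-likelihood test (adjusted p = 0.911 and 0.175).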
